A study of Homo sapiens with 12 samples.

Results

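The S100 proteins are a family of small calcium-binding proteins. They were followed here in MDA-MB-231-ERβ cells, a triple negative breast cancer line that makes full length ERβ when dox is added. Members were chosen by symbol from a list of 10, namely S100A2, S100A4, S100A6, S100A7, S100A8, S100A9, S100A10, S100A11, S100A13 and S100A16. The count table held 9 of them among 12451 entries, and S100A8 was not analysed here. All 9 were among the 11303 genes tested, which were those with an RPKM (reads scaled to library size and per kb of exon) of at least 1 in at least 3 libraries. Of these 9 members, 7 reached that level in all 12 libraries. S100A7 and S100A9 reached it in 6 libraries, those of the E2 and E2+TNFα groups, so that they entered the test through the groups in which they were high. They are described separately for that reason.

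All 4 groups received dox in charcoal-stripped serum, and the comparisons therefore concern ligand in cells that already carried the induced receptor. The level of the receptor's transcript, ESR2, differed between groups and is given below. Treatment with E2 (1 nM) or with ethanol as vehicle lasted 5 days, and the TNFα and E2+TNFα groups also had TNFα (20 ng/ml) in the medium during the last 3 h. The treatment label of the E2+TNFα libraries names no dox, but their protocol does. Each group had 3 libraries from dishes plated in triplicate, so p-values measure the spread between dishes of a single line. Reads assigned to genes were 35.8, 37.5 and 39.9 M for vehicle, 15.8, 7.65 and 11.9 M for E2, 30.5, 30.2 and 19.5 M for TNFα, and 16.8, 27.1 and 36.7 M for E2+TNFα. Vehicle libraries stood apart from the other 9 in a trend with exon GC content, described below with its effect on each comparison. Levels are in CPM (counts scaled to library size, with TMM), and levels of different genes are compared in RPKM.

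S100 proteins bind calcium through EF-hand motifs, usually work as dimers, and change shape to grip a target protein when calcium rises. Inside cells they act on the cytoskeleton, membranes and annexins, and several are secreted and signal to RAGE or TLR4 as alarmins. Most of their genes lie in a cluster on the long arm of chromosome 1. S100A7 (psoriasin) and S100A9 (a subunit of calprotectin) are best known from inflamed skin and myeloid cells and are also made by some breast cancers.

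S100A7 and S100A9 were nearly silent without E2 and readily detected with it, and the stretches before their start sites are shown with that of S100A10, which was abundant in every group. The 120 bases before each start, 5′ to 3′ on the gene's strand, are from RefSeq (GRCh38.p14), with a TATA box (TATAAA, forward strand) in capitals. They lie on chromosome 1 at chr1:153460652-153460771 (minus strand) for S100A7, at chr1:153357734-153357853 (plus strand) for S100A9 and at chr1:151993860-151993979 (minus strand) for S100A10.
S100A7: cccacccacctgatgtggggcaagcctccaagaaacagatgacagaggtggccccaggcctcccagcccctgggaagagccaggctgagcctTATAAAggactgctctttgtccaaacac
S100A9: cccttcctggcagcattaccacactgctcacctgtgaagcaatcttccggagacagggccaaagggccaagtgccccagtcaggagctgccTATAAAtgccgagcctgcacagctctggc
S100A10: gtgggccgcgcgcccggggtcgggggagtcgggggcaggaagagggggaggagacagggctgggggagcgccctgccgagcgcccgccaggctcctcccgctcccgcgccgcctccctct

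The TATA box began 28 bases before the start of S100A7 and 29 before that of S100A9. All 9 members matched RefSeq windows of 250 bases before to 50 after a start, 13 windows in all. The TATA letters were also in the window of S100A4 and in 1 of S100A13, against 7.33% of all 35097 windows. An AP-1 motif (TGANTCA, either strand) was found in 1 window of S100A2 (7.71% of all windows) and a C/EBP motif (TTGCNNAA, either strand) in that of S100A11 (10.5% of all windows). No window of a member held the κB motif (11.3% of all windows) or a full oestrogen response element (0.057% of all windows) on either strand. The AP-1 pattern matched there on both strands, at the same position, and no match overlapped one of another motif.

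S100A7 was detected almost entirely in cells given E2. Its counts were 1, 0 and 1 in the vehicle libraries and 265, 70 and 138 in the E2 libraries. They were 0, 0 and 0 with TNFα and 177, 398 and 284 with E2+TNFα. Every E2-treated library was therefore far above every library without E2, and the groups did not overlap. In bulk libraries such as these, a change in the number of cells that make a transcript and a change in its amount per cell cannot be told apart. Scaled to depth, the level was 13.9 ± 3.70 CPM (SD, n = 3) with E2 and 11.1 ± 2.71 with E2+TNFα. The ratio of E2 to vehicle was 959 (95% exact interval 264 to 7945), which rests on 2 vehicle reads, and exact intervals, here and below, cover counting error only. With E2+TNFα the gene was at least 294-fold higher than with TNFα, taking 3 counts over the TNFα group as the floor. Between TNFα and vehicle both groups were at or under that floor and no fold is given.

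S100A9 followed the same pattern with slightly more reads in the low groups. Its counts were 2, 1 and 2 with vehicle, 201, 70 and 108 with E2, 3, 1 and 5 with TNFα, and 166, 255 and 355 with E2+TNFα. Again the libraries with E2 stood apart from those without it. The level was 11.6 ± 2.02 CPM (SD, n = 3) with E2 and 9.94 ± 0.902 with E2+TNFα. The ratio of E2 to vehicle was 307.5 (95% exact interval 131 to 952.5), and that of E2+TNFα to TNFα was 88.5 (46.4 to 194). Of the 9 reads in the TNFα group, 5 were in replicate 3. The fitted log2 fold change of E2+TNFα relative to TNFα was 6.38, and 7.15 without TNFα replicate 3, and is given as a description since the gene entered the test through its high groups. TNFα relative to vehicle gave a ratio of 2.91 with a counting interval of 0.875 to 11.04, which includes no change. The fitted log2 fold change was 1.46 ± 0.70 (SE; edgeR, adjusted p = 0.0678), below the size threshold of 1.5. Leaving out single libraries moved it between 0.70 and 1.96, and these values rest on 5 and 9 reads.

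**Figure D1:**
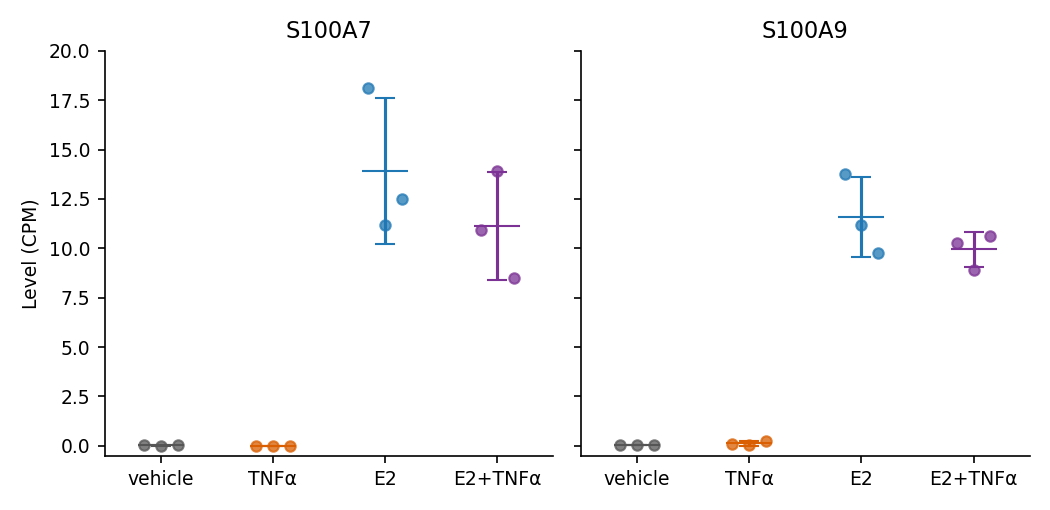
Level (CPM) of S100A7 and S100A9 in each library (points) of the 4 groups, with the group mean (bar) and SD (whiskers), n = 3. E2 and E2+TNFα libraries lie between 8.51 and 18.1 CPM, and vehicle and TNFα libraries lie at or near 0.

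No difference between E2+TNFα and E2 was detected for either gene. The log2 fold change of E2+TNFα relative to E2 was -0.34 ± 0.26 (SE) for S100A7 (interval of 2 SE on each side, from the fit over libraries, -0.87 to 0.19) and -0.22 ± 0.25 for S100A9 (-0.73 to 0.28). Neither passed the test (edgeR quasi-likelihood test, Benjamini-Hochberg adjusted p = 0.522 and 0.679), and the libraries of both groups overlapped. The number of S100A7 reads per S100A9 read was 1.32, 1.00 and 1.28 in the E2 libraries and 1.07, 1.56 and 0.80 in the E2+TNFα libraries. S100A7 reads are uncertain in origin, since its exons are 95.6% identical to those of S100A7A over 429 of 439 bases.

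Markers of the cell types that usually make these proteins were examined in the same libraries. Of 5 myeloid markers, CD14, CSF1R and LYZ were in the table, and PTPRC and ITGAM were not analysed here. Their summed level was 1.98, 1.95 and 2.06 CPM with vehicle, 4.72, 5.26 and 4.16 with E2, 4.51, 3.69 and 4.53 with TNFα, and 4.70, 5.14 and 4.31 with E2+TNFα. The sum was higher in each of the 3 treated groups than with vehicle, without overlap. LYZ (lysozyme) had the highest RPKM of the 3 in each of the 6 libraries given E2. It moved with E2, from 0.102 ± 0.0632 CPM (SD, n = 3) with vehicle to 1.68 ± 0.651 with E2. It reached the RPKM filter in 5 libraries, all given E2 with or without TNFα, so its levels are a description. CD14 was at 0.652 ± 0.106 CPM with vehicle, 1.15 ± 0.289 with E2, 1.48 ± 0.369 with TNFα and 0.708 ± 0.062 with E2+TNFα. CSF1R was at 1.24 ± 0.0183, 1.88 ± 0.866, 2.57 ± 0.782 and 1.67 ± 0.485 CPM in the same order, so that both means were highest with TNFα, where LYZ was at 0.199 ± 0.142. None of the 3 was at 0 in a group. Of 6 squamous markers, KRT10 alone was in the table, at 25.2 ± 2.41 CPM with vehicle and 69.1 ± 2.37 with E2, and the 5 others were not analysed here. The part of other cell types in these results was not tested. The line's own markers were high in every group, with VIM at 1550 ± 33.8, 1454 ± 118 and 1157 ± 100.1 CPM with vehicle, E2 and TNFα and at 1490.4 ± 194 with E2+TNFα. CD44 was at 755 ± 32.4, 899.98 ± 103, 1644 ± 50.6 and 1037 ± 72.4 CPM in the same order, and AXL at 1199.6 ± 45.5, 1571 ± 101, 1807 ± 129 and 1552 ± 183. Among epithelial markers that the line is known to lack or to hold low, CDH1 (E-cadherin) was 3.15 ± 0.525 CPM with vehicle and 41.0 ± 11.05 with E2, having reached the filter only in the 6 libraries given E2 with or without TNFα, EPCAM was 9.93 ± 0.935 and 10.1 ± 3.17, and ERBB2 was 99.2 ± 7.18 and 93.9 ± 11.1.

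The other 7 members were measured in every library and spanned a wide range of levels. Where groups are said not to overlap, here and below, the share of all genes doing so was not counted. With vehicle, S100A11 was the most abundant at 665 ± 30.0 RPKM (SD, n = 3), followed by S100A6 at 344 ± 25.0, S100A10 at 245 ± 8.02, S100A16 at 106 ± 5.23, S100A13 at 27.0 ± 2.09, S100A4 at 2.33 ± 0.403 and S100A2 at 1.501 ± 0.0759. S100A9 and S100A7 came last, at 0.0668 ± 0.0229 and 0.0350 ± 0.0304 RPKM. No neighbours in this order overlapped over the 3 libraries except S100A9 and S100A7. TNFα libraries had the same order. With E2 and with E2+TNFα, S100A10 came next after S100A11 and before S100A6, although the libraries of these last overlapped, and S100A7 (31.7 ± 8.43 RPKM with E2) and S100A9 (20.0 ± 3.51) rose above S100A4 (11.6 ± 3.12) and S100A2 (5.51 ± 1.13).

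**Figure D2:**
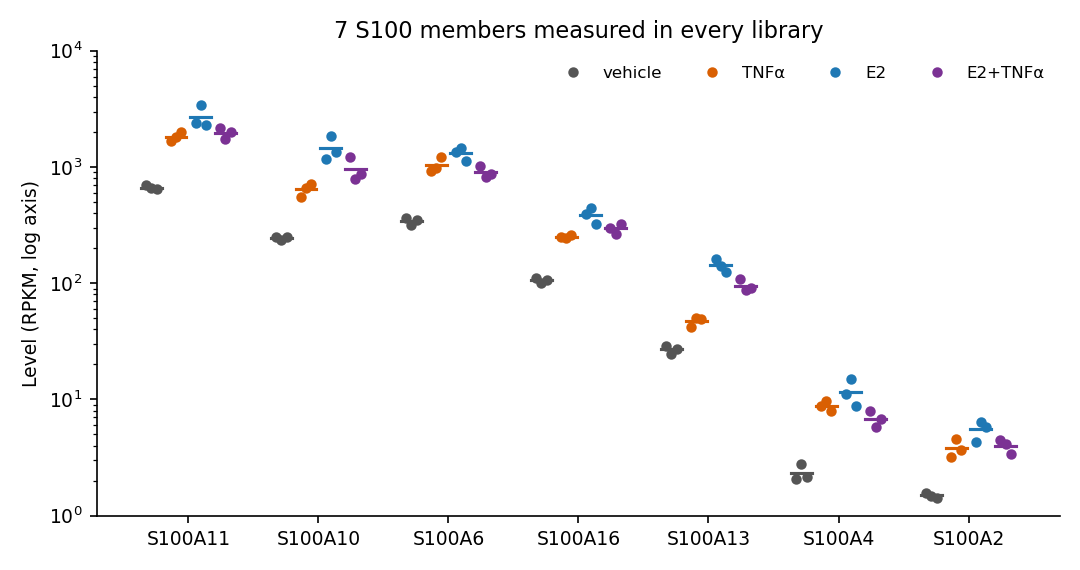
Level (RPKM, log axis) of the 7 members measured in every library, with 1 point per library and a line at the group mean, n = 3 per group. Vehicle libraries are the lowest for each of the 7, from 1.43 RPKM (S100A2) to 698 RPKM (S100A11). The share of all genes with this order was not counted. At an adjusted p of at most 0.1 (edgeR), 40.3% of all genes were higher with TNFα than with vehicle, and 39.1% with E2+TNFα.

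S100A10 is the partner of annexin A2 in a complex that carries plasminogen activation to the cell surface. It was at 264, 249 and 263 CPM in the vehicle libraries and at 1232, 1931 and 1415 CPM in the E2 libraries. With TNFα it was at 584, 695 and 749.6 CPM, and with E2+TNFα at 1286, 836 and 921 CPM. Each treated group was above vehicle without overlap, and E2 replicate 2, the library with the fewest reads, was the highest of all. The log2 fold change was 2.56 ± 0.19 (SE) for E2 relative to vehicle (edgeR, adjusted p = 1.63e-08) and 1.39 ± 0.18 for TNFα relative to vehicle (5.43e-06). It was 0.59 ± 0.18 for E2+TNFα relative to TNFα (0.0179).

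S100A11 is a ligand of annexins in membrane repair and growth control. Its level was 415, 389 and 380.5 CPM with vehicle and 1431.5, 2029.6 and 1353 with E2. With TNFα it was 992, 1070.5 and 1179.9 CPM, and with E2+TNFα 1283, 1041.5 and 1189.3. Vehicle was again the lowest group, while the libraries of TNFα and E2+TNFα overlapped. The log2 fold change was 2.02 ± 0.15 (SE) with E2 (edgeR, adjusted p = 2.09e-08) and 1.45 ± 0.15 with TNFα (5.91e-07), both relative to vehicle. Its exons share 91.4% to 92.3% identity with 3 processed pseudogenes over 313 to 315 of 594 bases, which may move reads between them.

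S100A6 (calcyclin) and S100A16 are widely expressed members of the family. S100A6 was at 249, 216 and 239 CPM with vehicle, 915, 999.98 and 774 with E2, 627, 674 and 827 with TNFα, and 694, 558 and 592 with E2+TNFα. S100A16 was at 179, 162 and 169 CPM with vehicle, 627, 718 and 514 with E2, 397, 396 and 420.5 with TNFα, and 477, 426 and 520.3 with E2+TNFα. For both, vehicle was lowest and the highest library belonged to E2. The E2 effect relative to vehicle was 1.93 ± 0.14 (SE, log2) for S100A6 and 1.86 ± 0.13 for S100A16 (edgeR, adjusted p = 1.60e-08 and 1.04e-08).

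S100A13 takes part in the export of FGF1 and IL1A from cells without a signal peptide. It was at 47.0, 40.2 and 44.3 CPM with vehicle, 264, 229 and 203 with E2, 68.4, 81.5 and 79.5 with TNFα, and 176, 142 and 148 with E2+TNFα. These 4 groups did not overlap, in the order vehicle, TNFα, E2+TNFα and E2. The log2 fold change was 2.40 ± 0.14 (SE) for E2 relative to vehicle (edgeR, adjusted p = 1.53e-09) and 1.02 ± 0.13 for E2+TNFα relative to TNFα (2.08e-05). Its exons share 152 bases with S100A1 and 111 with CHTOP on the opposite strand. Libraries were stranded, but the strand setting of the counting is not given in the sources used here, so reads in these stretches are uncertain. S100A1 had at most 24 reads in a library and S100A13 had 1437 to 4925. Exons of S100A13 also share sequence with 2 lncRNA transcripts, over 209 and 416 bases at 100% and 96.2% identity.

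S100A4 (metastasin), which binds nonmuscle myosin and is linked to cell motility, and S100A2, a nuclear member often lost in breast tumors, had few reads. S100A4 was at 1.16, 1.57 and 1.20 CPM with vehicle, 6.23, 8.45 and 4.97 with E2, 4.91, 5.42 and 4.53 with TNFα, and 4.51, 3.25 and 3.805 with E2+TNFα. S100A2 was at 1.52, 1.43 and 1.38 CPM with vehicle, 4.11, 6.22 and 5.61 with E2, 3.10, 4.37 and 3.54 with TNFα, and 4.33, 3.95 and 3.24 with E2+TNFα. Vehicle was lowest in both. The 3 treated groups overlapped for S100A2. For S100A4, the E2+TNFα libraries lay below those with E2 or TNFα alone, but the closest, at 4.51 CPM, was beside 4.53 with TNFα. Neither difference of S100A4 reached an adjusted p of at most 0.1 (edgeR, 0.119 relative to E2 and 0.242 relative to TNFα). The log2 fold change for E2 relative to vehicle was 2.29 ± 0.26 (SE) for S100A4 and 1.85 ± 0.25 for S100A2 (edgeR, adjusted p = 1.14e-06 and 7.25e-06). Counts were 48 to 166 per library for S100A4 and 39 to 134 for S100A2.

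Each of the 7 members measured in every library was higher with E2 than with vehicle. A batch and the vehicle condition cannot be told apart, and other ways of processing kept fewer of the calls, as described next. A gene was called at the study's thresholds, which are a log2 fold change of 1.5 or more in either direction, p under 0.05 and adjusted p of at most 0.1. By these, 7 of 7 were called higher, against 9.87% of all genes tested (and 20.6% called lower). Their median log2 fold change was 2.02 (1.85 to 2.56), beside -0.02 for all genes. Leaving out any 1 of the 6 libraries kept these 7 calls. S100A7 and S100A9 also passed, but had entered the test through their high groups.

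The size of this change differed between ways of processing the counts. The study's methods describe a correction of batches, but neither they nor the labels say which libraries formed one, so a batch and the vehicle condition cannot be told apart. The median log2 fold change of E2 relative to vehicle was -1.91 in the 2261 genes with the lowest GC content and 0.76 in the 2261 with the highest. Exon GC content was 49.0% to 60.0% in the members, and 6 of 9 lay in the class of 53.0% to 59.0%, whose median was 0.66. With the trends in GC content and exon length taken out of every library, E2 relative to vehicle was 1.83 ± 0.17 (SE, log2) for S100A10, 1.67 ± 0.11 for S100A13 and 1.88 ± 0.27 for S100A4, which stayed called. S100A11 (1.46 ± 0.15), S100A2 (1.28 ± 0.24), S100A6 (1.01 ± 0.11) and S100A16 (1.01 ± 0.07) then fell below the size threshold, all with adjusted p of at most 0.000185. With an unwanted factor from 20 housekeeping genes in the model, S100A13 (2.32 ± 0.37) and S100A2 (1.88 ± 0.73) stayed called, and S100A10 (1.44 ± 0.45), S100A4 (1.42 ± 0.71), S100A6 (1.35 ± 0.36), S100A16 (1.04 ± 0.28) and S100A11 (0.97 ± 0.33) did not. Over all genes, the calls were 1116 higher and 2331 lower with TMM alone, 848 and 726 with trends removed, and 859 and 820 with the unwanted factor.

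**Figure D3:**
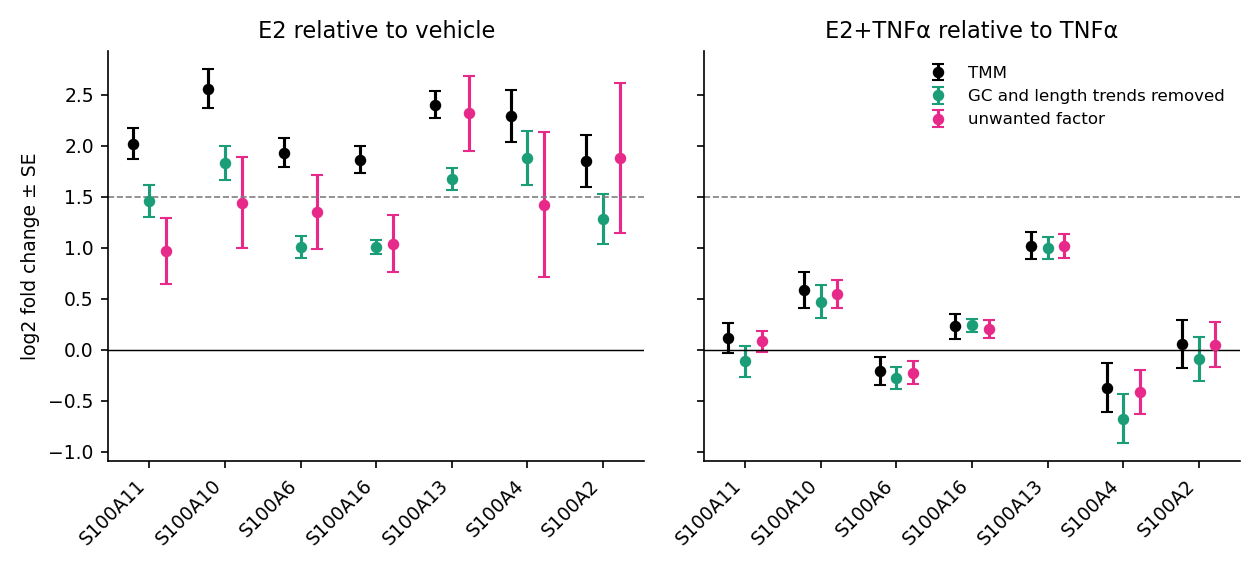
Log2 fold change (± SE) of 7 members for E2 relative to vehicle (left) and E2+TNFα relative to TNFα (right), after TMM alone, with GC and length trends removed, and with an unwanted factor from housekeeping genes. The dashed line marks 1.5; on the left S100A6 moved from 1.93 to 1.01 with trends removed, while on the right S100A13 stayed between 1.00 and 1.02.

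Exposure to TNFα for 3 h was also accompanied by a rise of these 7 members. Relative to vehicle, S100A4 (log2 fold change 1.91 ± 0.25, SE) and S100A6 (1.59 ± 0.14) were called higher, against 6.64% of all genes (20.0% lower). S100A11, S100A10, S100A2, S100A16 and S100A13 rose by 1.45, 1.39, 1.34, 1.25 and 0.80. All 7 were higher at an adjusted p of at most 0.1, against 40.3% of all genes, and their median was 1.39 beside 0.01 for all genes. The call of S100A6 was lost without TNFα replicate 3 (1.47 ± 0.14), and S100A11 was called without TNFα replicate 1 (1.51 ± 0.17). These comparisons use the same vehicle libraries as those with E2 and have the same trend with GC content, with medians of -1.92 and 0.81 in the classes with the lowest and the highest GC content. Trend removal left S100A4 at 1.95 ± 0.25 and S100A6 at 0.84 ± 0.11, and the unwanted factor left neither called. All genes gave 751 calls higher and 2265 lower with TMM alone, 568 and 620 with trends removed, and 434 and 806 with the unwanted factor.

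E2+TNFα relative to vehicle gave values between those of the single treatments for several members. S100A10 (1.97 ± 0.18, SE, log2), S100A13 (1.82 ± 0.13), S100A11 (1.57 ± 0.15) and S100A4 (1.54 ± 0.25) were called higher, against 7.52% of all genes. S100A16 (1.48 ± 0.13), S100A2 (1.40 ± 0.24) and S100A6 (1.39 ± 0.14) were just below the size threshold. All 7 were higher at an adjusted p of at most 0.1, against 39.1% of all genes, with a median of 1.54 beside -0.03 for all genes. S100A4 was not called without vehicle replicate 1 (1.43), vehicle replicate 3 (1.46) or E2+TNFα replicate 1 (1.42), nor was S100A11 without the last (1.498). S100A16 was called without E2+TNFα replicate 2 (1.55) and S100A2 without E2+TNFα replicate 3 (1.51). Class medians ran from -1.64 at the lowest to 0.70 at the highest GC content. With trends removed none of the 4 stayed called (S100A10 1.44, S100A4 1.28, S100A13 1.27 and S100A11 1.11), and with the unwanted factor S100A13 (1.75) did, while S100A10 (1.13), S100A4 (0.87) and S100A11 (0.78) did not. Calls over all genes were 850 higher and 1987 lower with TMM alone, 662 and 569 with trends removed, and 687 and 682 with the unwanted factor.

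**Figure D4:**
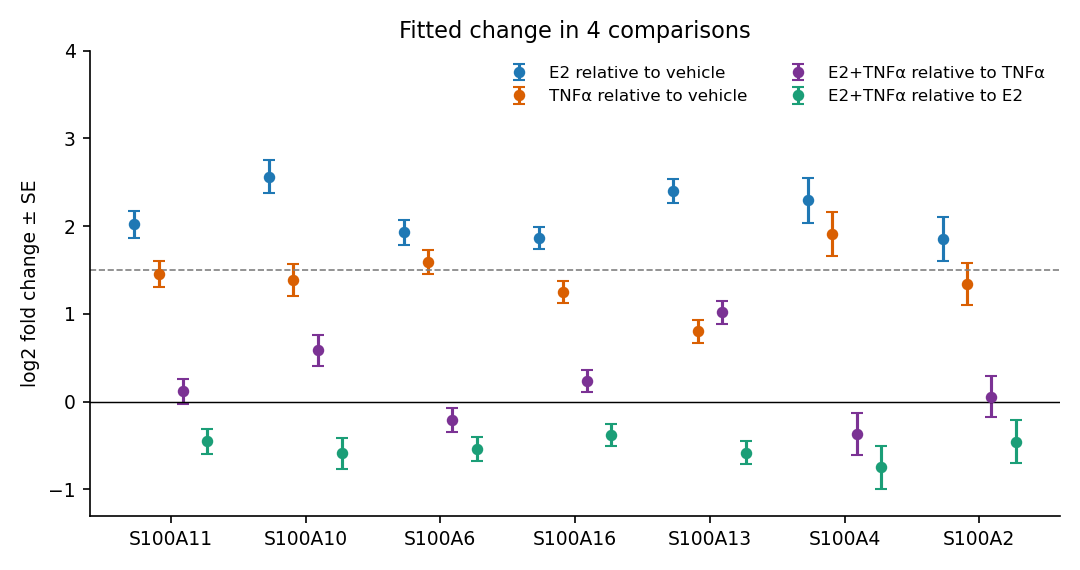
Fitted log2 fold change (± SE) of 7 members in 4 comparisons. E2 relative to vehicle lies between 1.85 and 2.56 and TNFα relative to vehicle between 0.80 and 1.91, whereas E2+TNFα relative to TNFα lies between -0.37 and 1.02 and E2+TNFα relative to E2 between -0.75 and -0.39; the dashed line marks 1.5.

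E2+TNFα was also compared with TNFα alone, in the same fit of all 12 libraries. Vehicle libraries thus entered its scaling and spread, but neither group mean. In cells exposed to TNFα, E2 raised S100A13 and S100A10 at an adjusted p of at most 0.1, by 1.02 and 0.59 on the log2 scale, against 24.4% of all genes higher at that level. Without E2+TNFα replicate 1, the highest of its group for S100A10, the value of that gene was 0.38 and its adjusted p 0.115. S100A16 changed by 0.23 ± 0.13 (SE; interval of 2 SE on each side, -0.02 to 0.48), S100A11 by 0.12 ± 0.15 (-0.18 to 0.41) and S100A2 by 0.06 ± 0.23 (-0.41 to 0.52). The values of S100A6 and S100A4 were -0.21 ± 0.14 (-0.48 to 0.07) and -0.37 ± 0.24 (-0.85 to 0.11). The median of the 7 was 0.12, beside 0.04 for all genes. Class medians ran from 0.28 at the lowest to -0.08 at the highest GC content. None of the 7 passed the thresholds, by edgeR or by DESeq2, against 3.55% of all genes called higher and 2.01% lower. At an unadjusted p under 0.05 in edgeR 2 of the 7 were higher, as were 2816 of all 11303 genes, with 2422 lower. A fit of the 9 libraries without vehicle called none of the 7 either. S100A11 and S100A2 turned to -0.11 and -0.09 with trends removed.

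Relative to E2 alone, E2+TNFα gave lower values for all 9 members. S100A13 was lower by -0.58 ± 0.13 (SE, log2), S100A10 by -0.59 ± 0.18 and S100A6 by -0.54 ± 0.14 (edgeR, adjusted p = 0.0316, 0.0892 and 0.0493), against 3.34% of all genes lower at an adjusted p of at most 0.1. None of these 3 kept that level without E2 replicate 1 (adjusted p = 0.130, 0.102 and 0.135) or without E2+TNFα replicate 2 (0.137, 0.319 and 0.201). Without E2 replicate 2, S100A10 (-0.40, adjusted p = 0.233) and S100A6 (0.108) did not, and without E2+TNFα replicate 3, S100A10 (0.107) did not. S100A4 (-0.75 ± 0.25), S100A11 (-0.45 ± 0.15), S100A16 (-0.39 ± 0.13) and S100A2 (-0.45 ± 0.24) had adjusted p of 0.119, 0.111, 0.114 and 0.326. None passed the thresholds, by edgeR or by DESeq2, against 0.389% of all genes called higher and 0.0177% lower. At an unadjusted p under 0.05 in edgeR 6 members were lower, as were 1189 of all 11303 genes, with 1007 higher. The median of the 9 was -0.45, beside 0.01 for all genes. Class medians here were 0.24 at the lowest and -0.05 at the highest GC content. In the class of 53.0% to 59.0%, which holds 6 of the 9 members, the median was -0.12. With trends removed S100A10 had an adjusted p of 0.144, and with the unwanted factor 0.290.

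The interaction compared the change with TNFα in E2-treated cells with that in vehicle-treated cells. For each of the 7 members the change with TNFα was positive without E2 and below 0 with it, and the difference was negative. It was -2.66 ± 0.35 (SE, log2) for S100A4, -2.14 ± 0.19 for S100A6, -1.98 ± 0.25 for S100A10, -1.91 ± 0.21 for S100A11, -1.80 ± 0.34 for S100A2 and -1.63 ± 0.18 for S100A16, and these 6 were called lower, against 9.29% of all genes. S100A13 (-1.38 ± 0.18) missed the size threshold. All 7 were lower at an adjusted p of at most 0.1, against 37.6% of all genes, and the median of the 7 was -1.91 beside -0.01 for all genes. Interaction values of S100A7 and S100A9 rest on few reads in the groups without E2 (2 and 0 for S100A7, 5 and 9 for S100A9) and are not given. The interaction also followed exon GC content (median 2.18 in the class with the lowest and -0.84 in that with the highest). With trends removed S100A4 (-2.56 ± 0.36) and S100A11 (-1.57 ± 0.21) stayed called, and with the unwanted factor S100A4 (-1.83 ± 0.73) and S100A6 (-1.58 ± 0.38) did. Interaction calls over all genes were 2543 higher and 1050 lower with TMM alone, 784 and 775 with trends removed, and 851 and 531 with the unwanted factor.

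Together the 9 members took up 0.134%, 0.120% and 0.126% of assigned reads in vehicle libraries and 0.4185%, 0.487% and 0.400% in E2 libraries. TNFα libraries held 0.267%, 0.297% and 0.322%, and E2+TNFα libraries 0.380%, 0.320% and 0.309%. S100A11 or S100A10 gave the most reads in each. The vehicle share was the lowest and the E2 share the highest, and neither overlapped another group.

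All 9 members lie on chromosome 1 of hg38, from S100A10 (151982910 to 151994238) and S100A11 (152032506 to 152037035) to S100A9 (153357854 to 153361027), S100A7 (153457744 to 153460661), S100A6 (153534600 to 153536241), S100A4 (153543619 to 153545806), S100A2 (153561108 to 153565830), S100A16 (153606886 to 153613038) and S100A13 (153618799 to 153634092). They have 3 to 10 exons and 439 to 1626 exon bases, against a median of 3594 for all genes tested. Between S100A10 and S100A1 the table held 3 entries that are not S100 genes, all epidermal, of which 2 were tested. HRNR (hornerin) had a log2 fold change of -4.13 for E2 relative to vehicle and FLG (filaggrin) -0.84, opposite in sign to the S100 genes around them. Among the 10 nearest entries outside, 9 were tested and 1, SNAPIN (a SNARE-associated protein), was called higher with E2 (1.80), near the 9.87% of all genes, while the median of the 9 was 0.27. THEM5 (an acyl-CoA thioesterase) was at -1.26. In E2+TNFα relative to TNFα the median of the 9 was -0.22, and FLG was at 1.03 (edgeR, adjusted p = 0.000107) and HRNR at 0.06 (0.832).

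**Figure D5:**
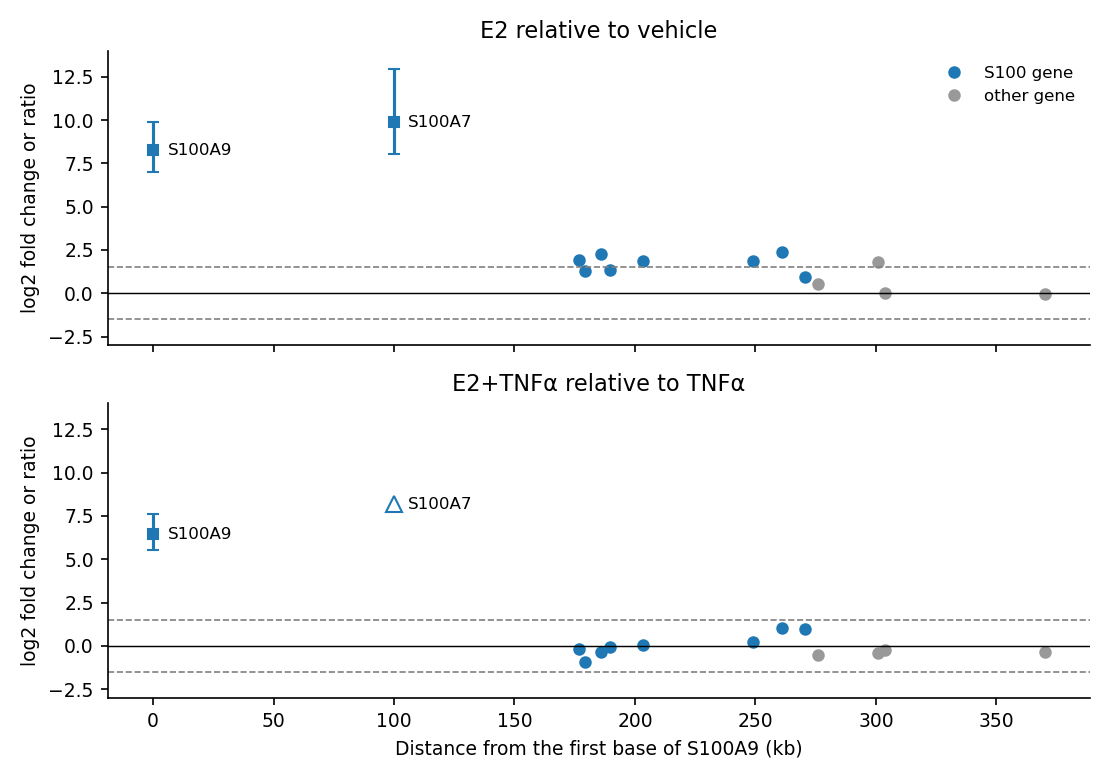
Change of each tested gene from S100A9 onward, against the distance of its first base from that of S100A9 (kb), for E2 relative to vehicle (top) and E2+TNFα relative to TNFα (bottom). Circles are fitted log2 fold changes, squares log2 ratios of summed counts with 95% counting intervals (S100A7 and S100A9), and the open triangle a lower bound (S100A7, TNFα group at 0 reads); S100A7 and S100A9 lie above the S100 genes that begin 177 to 271 kb further along.

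The table held 5 further symbols beginning with S100, none of them in the list. S100A3 and S100A5, neighbours of S100A4, rose with E2 by 1.36 ± 0.31 and 1.31 ± 0.32 (SE, log2; edgeR, adjusted p = 0.00087 and 0.00163), below the size threshold, and with TNFα by 1.85 ± 0.29 and 1.61 ± 0.29, above it. S100A5 passed the filter in 4 libraries, 3 of them of the TNFα group, so its rise with TNFα is a description, and its RPKM was below 2 in all 12. S100A1 had 51, 25, 20 and 39 reads in the vehicle, E2, TNFα and E2+TNFα groups, and none of its comparisons passed the test. S100G (calbindin D9k, a vitamin D target on the X chromosome) was highest with vehicle. It reached the filter in 5 libraries, 3 of them of the vehicle group, so its changes from vehicle are a description. Its counts were 53, 67 and 83 with vehicle, 5, 0 and 2 with E2, 0, 0 and 0 with TNFα, and 9, 17 and 8 with E2+TNFα. It was at least 41.9-fold lower with TNFα than with vehicle, and the ratio of E2 to vehicle was 0.140 (95% exact interval 0.0555 to 0.293). Its exon GC content was 38.9%, in the class with the lowest values. S100PBP, which encodes an S100P-binding protein, fell with E2 by -0.56 ± 0.17 (adjusted p = 0.0075), and its exons share 355 bases with YARS on the opposite strand.

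Binding partners of the members moved in both directions. Of 14 listed, 13 were tested, with SYT1 under the filter. With E2 relative to vehicle none was called higher and 4 were called lower, against the 9.87% and 20.6% of all genes above. At an unadjusted p under 0.05 in edgeR, 3 were higher and 7 lower, beside 4390 and 4593 of all 11303 genes. The 4 called lower were IL1A (-3.99 ± 0.44, SE, log2), ANXA1 (-3.03 ± 0.66), SUGT1 (-2.58 ± 0.32) and COPS5 (-1.61 ± 0.34), and the median of the 13 was -1.11. Exon GC content was 40.1% to 43.6% in these 4 genes, a range in which the medians of all genes were -1.91 and -0.84. ANXA2, the partner of S100A10, was at 2392 ± 119 CPM (SD, n = 3) with vehicle, 977 ± 243 with E2, 617 ± 69.7 with TNFα and 837 ± 26.6 with E2+TNFα. AHNAK, the scaffold of the annexin A2 complex, was at 3140 ± 249.97 CPM with vehicle and 1275 ± 363 with E2 (edgeR, adjusted p = 4.64e-06). FGF1, released with S100A13, rose by 0.82 ± 0.18 with E2 (adjusted p = 0.000663) and by 1.06 ± 0.18 for E2+TNFα relative to TNFα (0.000325). MYH9, the myosin bound by S100A4, did not pass the test with E2 (0.19 ± 0.15, adjusted p = 0.249).

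With TNFα, ANXA1, SUGT1, COPS5 and ANXA2 (-1.96 ± 0.16) were called lower and PLAU (urokinase) was called higher (2.80 ± 0.13), with a median of -0.73 over the 13 partners, against 20.0% of all genes lower and 6.64% higher. In E2+TNFα relative to TNFα, PLAU (-1.999 ± 0.125) and IL1A (-1.94 ± 0.38) were called lower and ANXA1 (1.78 ± 0.65) higher, the last with overlapping libraries. The median of the 13 partners was 0.11 there, and 2.01% of all genes were called lower and 3.55% higher. Thus IL1A and FGF1, both exported with S100A13, moved in opposite directions with E2 with or without TNFα.

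Receptors and adaptors of secreted S100 proteins moved in both directions. Of 6 listed, 5 were tested, and CD36 was not analysed here. With E2 none passed the thresholds in edgeR, against 9.87% of all genes higher and 20.6% lower. At an unadjusted p under 0.05, 2 were higher and 1 lower, beside 4390 and 4593 of all 11303 genes. MYD88, the adaptor of TLR4, was at 28.3 ± 1.56 CPM (SD, n = 3) with vehicle and 76.0 ± 7.21 with E2 (1.42 ± 0.12, SE, log2; adjusted p = 8.23e-08). BSG (basigin), a receptor of S100A9, rose by 0.96 ± 0.15 and TLR4 fell by -0.76 ± 0.23. With TNFα, TLR4 was called lower (-1.69 ± 0.23), 1 of 5 against 20.0% of all genes, and its exon GC content of 40.5% lies in the class whose median was -1.92. AGER, which encodes RAGE, was at 5.05 ± 0.314 CPM with vehicle and 6.41 ± 0.572 with E2 (adjusted p = 0.151).

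Of 8 transcription factors listed as regulators of S100 genes, 7 were tested, and TP63 was not analysed here. With E2, CEBPD (1.52 ± 0.20, SE, log2) was called higher, 1 of 7 against 9.87% of all genes. Below the size threshold, CEBPB (1.44 ± 0.16), CEBPA (1.01 ± 0.38) and RELA (0.94 ± 0.13) rose, and CTNNB1 (-0.71 ± 0.15) and ESR2 (-0.62 ± 0.12) fell, at an adjusted p of at most 0.1. With TNFα, CEBPD (3.90 ± 0.21) and CEBPB (2.49 ± 0.16) were called higher, against 6.64% of all genes. CEBPA was at 0.845 ± 0.329 CPM (SD, n = 3) with vehicle, 4.75 ± 0.53 with TNFα and 1.60 ± 0.267 with E2+TNFα, but it reached the filter in 4 libraries, 3 of them of the TNFα group, so that its calls in comparisons with that group are a description. Exon GC content was 65.9% to 67.4% in these 3 genes, in the class whose median with TNFα was 0.81. In E2+TNFα relative to TNFα, CEBPD was at -1.40 ± 0.19. STAT3 did not pass the test with E2 (-0.09 ± 0.11, adjusted p = 0.490). ESR2, the gene of ERβ, was at 472.5 ± 14.9 CPM (SD, n = 3) with vehicle, 306 ± 14.7 with E2, 255 ± 26.7 with TNFα and 448.5 ± 53.2 with E2+TNFα, so that the transcript was present in every group. It was higher in E2+TNFα relative to TNFα by 0.81 ± 0.12 (SE, log2; edgeR, adjusted p = 5.73e-05), so these groups differed in receptor transcript as well as in ligand.

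Genes whose log2 CPM over the 12 libraries was most like that of a member were listed for the 3 members with the widest range. Pearson's r is given as a description, since libraries of a group lie together and the values reflect differences between groups. S100A7 was most like F13A1 (coagulation factor XIII A, r = 0.996), CST1 (0.995) and CST4 (0.995), both salivary cystatins. S100A9 was most like OASL (an interferon-stimulated gene, 0.996), ZNF488 (0.995) and TNS4 (a tensin, 0.995). S100A10 was most like CSTB (cystatin B, 0.998), PRDX6 (a peroxiredoxin, 0.994) and CMTM7 (0.991). Mean levels of CST1 were 13.6 CPM with vehicle, 688 with E2, 9.78 with TNFα and 596 with E2+TNFα, which shows the pattern shared with S100A7. Mean levels of PRDX6 were 221, 746, 423 and 542 CPM in the same order. Among the members, r was 0.987 between S100A7 and S100A9 and 0.991 between S100A11 and S100A16, and it was lowest between S100A4 and S100A7, at 0.517.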

How the data were processed

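Values deposited were whole-number counts of reads per gene, not normalized. Per the labels and methods, the authors mapped paired reads of stranded mRNA libraries and counted them with featureCounts, and the submitters' processing notes name TopHat2 2.1.0 and hg38. The RUVseq correction of the methods is not part of them. Members, gene lists and tests were chosen with earlier results of these data known. From 12567 entries, 46 exact repeats and 70 that duplicated another symbol's locus and counts were dropped. Depth was 7.65 to 39.9 M reads per library, and exact intervals and floors cover counting error alone, whereas intervals of 2 SE come from the fit and include the spread between libraries. TMM scaling and the quasi-likelihood test of edgeR 4.0.16 (R 4.3.3) were applied, a single fit holding 4 group means, with Benjamini-Hochberg adjustment over 11303 genes. Scripts were tested on simulated data. Alternatives were DESeq2 1.42.0 (its size factors, or its test), library size only, no filter, a replicate block, an unwanted factor estimated from 20 housekeeping genes, loess trends (span 0.3) in GC content and exon length removed, and leaving out each library. A fit without vehicle was added after seeing the data. Exon copies (at least 90% identity over 200 bases) were found with BLAST 2.17.0 in the annotated transcripts. Genes named were all members, other S100 symbols, listed partners, receptors, regulators and markers (a choice of them with values), at most 4 neighbours with the largest change with E2, and the 3 genes most like each of 3 members. Log2 CPM used a prior count of 2. The members' proteins were not compared here.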

Additional observations from a re-analysis of the deposited data

Results flagged for a closer look

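The change with TNFα differed between cells with and without E2, by the interaction term of edgeR and past the thresholds, for 6 members, against 9.29% of all genes called lower in it, and each change was the more positive without E2. The difference was -2.66 for S100A4, -2.14 for S100A6, -1.98 for S100A10, -1.91 for S100A11, -1.80 for S100A2 and -1.63 for S100A16 (log2). Vehicle libraries enter all 6 values, and after removal of trends with GC content and length they were -2.56, -1.28, -1.35, -1.57, -1.37 and -0.76 in the same order. The part of a batch in them was not tested.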

How the results depend on the processing

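Across 51 fitted changes of single members and 723 alternative values, 675 kept both direction and side of the thresholds, 39 lost a call, 5 gained one and 4 reversed. Of the 39 lost calls, 14 were with the unwanted factor, 13 with trends removed and 7 with library size only. Changes that were not called with TMM alone could not lose a call. The reversals were all in E2+TNFα relative to TNFα, in values that did not pass the test, namely S100A2 at -0.091 and S100A11 at -0.111 with trends removed, and S100A2 at -0.056 without TNFα replicate 1 and -0.032 without E2+TNFα replicate 1. S100A2 ran from -0.056 to 0.187 when single libraries were left out. Of the 9 members called higher with E2 relative to vehicle, 5 remained with trends removed and 4 with the unwanted factor. S100A7 and S100A9, which entered the test through their high groups, are in all these counts, and without them they were 7, 3 and 2. With library size only, 7 of the 9 remained, and S100A2 and S100A16 (1.495 each) lost their calls. TNFα relative to vehicle (2 called) gave 1 with trends removed, 0 with the unwanted factor, 1 with library size only and 1 to 3 when single libraries were left out. E2+TNFα relative to vehicle (6 called, S100A7 and S100A9 among them) gave 2 with trends removed and 3 with the unwanted factor, and 4 to 7 when single libraries were left out. The median of the 9 members in that comparison was 1.57 with TMM alone and 1.33, below the size threshold, with library size only. The interaction (7 called lower, of which S100A9 rests on few reads, and 6 without it) gave 2, 2 and 4 with trends removed, the unwanted factor and library size only. Library size only moved the median of all genes with E2 from -0.02 to -0.38. Over all genes with E2 it gave 629 calls higher and 2982 lower, and the interaction 3064 and 587. Why these counts moved was not tested. Correlations of the deviations of 18 same-numbered pairs ran from -0.48 to 0.47, with a median of -0.115. Whether replicate numbers pair the libraries cannot be decided from these, since deviations within a group of 3 sum to 0. With the replicate number as a block, 9 members were called higher with E2, 2 with TNFα and 6 with E2+TNFα relative to vehicle, and the block changed no call among the 51 changes of members. Counting error limits S100A7, S100A9, S100G and S100A1, for which 3 counts over a group were the floor.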
